A study of Mus musculus with 10 samples.

Results

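Chaperones help newly made and damaged proteins to fold, and their messenger RNAs (mRNAs) were followed here in mouse testes and in mature sperm, with and without cadmium. The members were every known mRNA gene (RefSeq NM_ transcripts) whose symbol begins like that of a heat shock protein (Hspa, Hspb, Hspd, Hspe, Hsph, Hsp90), a heat shock factor (Hsf), a J protein (Dnaja, Dnajb, Dnajc) or a subunit of the cytosolic chaperonin (Cct). The rule took in 87 genes of the 16082 known mRNA genes that the files list in at least 1 of the 10 samples, and all 87 were placed by symbol on RefSeq's GRCm38.p6 annotation. A small number of them are not chaperones themselves, since Hsf2bp, Hspbp1, Hspbap1 and Hspb11 entered by name only.

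By the labels, all samples came from C57BL/6 mice of 3 to 5 months, an age range that differs from the one in the study's methods, which also name the substrain as C57BL/6J. Controls were given saline and the treated mice a single intraperitoneal injection of CdCl2 at 3 mg/kg, and both were killed on day 35. RNA was read from 4 pools of control sperm, 2 pools of cadmium sperm, 2 control testes samples and 2 cadmium testes samples. Sperm was pooled from several mice and freed of somatic cells by lysis before extraction, so a pool does not show the spread between animals. By the study's methods, each pool came from its own group of mice, and the testes came from these same mice. Control sperm and control testes are thus not from independent animals. Control sperm 1 was dropped by the study for its low correlation with the other pools. It is shown among the values here and enters no main test, so control sperm had n = 3 and every other group n = 2.

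HSP70 proteins bind exposed stretches of unfolded proteins in a cycle driven by ATP, J proteins bring them their clients and start the cycle, and HSP110 proteins reset it by exchanging the nucleotide. HSP90 finishes the folding of many kinases and receptors, the CCT ring encloses actin and tubulin, and small heat shock proteins hold clients until the others arrive. Heat shock factor 1 switches on the stress-induced members through heat shock elements in their promoters, and cadmium is a known inducer of this response. Male germ cells carry their own members, such as Hspa2, an HSP70 that spermatocytes need for meiosis. Transcription stops as the spermatid head condenses, so mature sperm carry mRNA left from earlier stages.

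The libraries differed in depth. Expected counts over all transcripts summed to between 366455 and 1058017 in control sperm, 1155491 and 1254477 in cadmium sperm, and 2606086 and 2866856 in testes, of which known mRNAs took 9.14 to 13.6%. The members held 243 to 629.2 counts in a control sperm pool, 882.9 and 1055.5 in the cadmium sperm pools and 3734.9 to 4311.3 in a testes sample, so 3 counts in a sperm pool could be the whole record of a gene. The sperm markers Prm1, Prm2, Tnp1, Tnp2, Odf1, Akap4 and Spem1 summed to 234 to 528 FPKM (fragments per kilobase of transcript, scaled to the size of the library) in sperm and 474 to 577 in testes, with Odf1 at 0 in all 6 sperm pools. Of the spermatogonial and spermatocyte markers, Kit, Stra8, Dmrt1, Sycp1, Spo11 and Hormad1 were at 0 in every sperm pool. Sall4 and Sycp3 were at 0.17 and 3.18 FPKM in cadmium sperm 1 and at 0 in the other pools. Summed spermatocyte markers were at 2.15 to 6.12 FPKM in testes. Kit was above 0 only in cadmium testes 1, at 0.07 FPKM. Summed leukocyte markers were at 0 to 4.69 FPKM in control sperm, at 1.86 and 13.1 in cadmium sperm and at 0.33 to 1.45 in testes. Of the 13.1, Cd52 held 12.07. Markers of epididymal epithelium summed to 0.49 to 15.7 FPKM in sperm and 12.2 to 22.3 in testes. Summed Leydig cell markers reached 27.5 FPKM in a control sperm pool, all of it Star, and were between 15.6 and 22.2 in testes. Sertoli cell markers summed to 0 to 14.8 FPKM in sperm and 0.19 to 3.17 in testes, so this set was not lower in sperm. The 14.8, in control sperm 1, was all Amhr2, while Wt1, Rhox5 and Cldn11 were at 0 in every sperm pool.

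The fewest members were found in control sperm pools, the shallowest libraries, and the most in testes, though within a group the number did not keep to the order of depth. Control sperm pools 1 to 4 listed 11, 48, 15 and 23 of the 87 members above 0, the cadmium sperm pools listed 53 and 50, and the testes samples listed 74 to 82. For comparison, control sperm 1 listed 12.6% of the known mRNA genes and 12.6% of the members. In every other sample the share of the members was the higher. The other sperm pools listed 9.65 to 48.7% of the known mRNA genes and 17.2 to 60.9% of the members. The testes samples listed 71.7 to 76.2% of the known mRNA genes and 85.1 to 94.3% of the members. No member was at 0 in all 4 testes samples, and 18 were at 0 in all 6 sperm pools. Among those 18 were the CCT subunits Cct3, Cct5, Cct6a and Cct8. Only Dnajb4, Dnajb8, Dnajc1, Dnajc7, Dnajc14, Hspa1a and Hspa12a were above 0 in every one of the 10 samples.

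Per length, the chaperone mRNA of these samples was mostly J protein and HSP70 mRNA. The members' FPKM summed to 251 to 307 in control sperm, 298 and 399 in cadmium sperm, and 528 to 698 in testes. This was 0.6 to 0.705% of the FPKM of all known mRNAs in control sperm, 0.693 and 0.711% in cadmium sperm and 1.19 to 1.46% in testes, with no overlap between the tissues on either scale. Class B J proteins, led by Dnajb8, held 50.8 to 158 FPKM in sperm and 215 to 316 in testes. Class C J proteins held 43.0 to 119 FPKM in sperm and 192 to 214 in testes. The HSP70 sum went the other way, with 54.0 to 85.0 FPKM in sperm and 44.5 to 53.0 in testes. Most of it in sperm was Hspa12a, Hspa1a and Hspa1b. These and Hspa14 had higher means in control sperm 2 to 4 than in control testes. The other HSP70 genes (Hspa2, Hspa1l, Hspa5, Hspa8, Hspa9, Hspa12b and Hspa13) had lower means there. Of the other families, HSP90 reached 29.2 and 21.9 FPKM in the cadmium sperm pools, and the rest stayed at or below 17.1 in sperm, where the 9 CCT genes together had between 0 and 6.21 FPKM against 10.8 to 24.7 in testes. The 5 highest members of a sample held 55.5 to 85.7% of its chaperone FPKM.

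**Figure D1:**
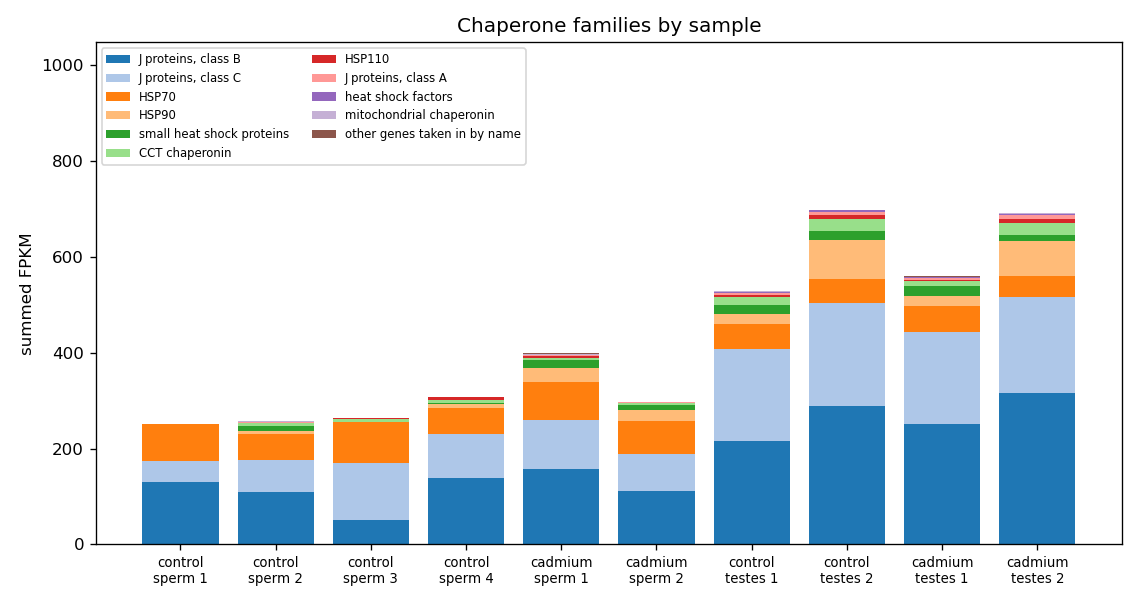
Summed FPKM of the members (vertical axis, linear from 0) in each of the 10 samples, stacked by family. The sperm pools reach 251 to 399 FPKM and the testes samples 528 to 698, and the J proteins of classes B and C make up most of each testes bar.

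Dnajb8, a testis J protein that keeps clients from aggregating, had the highest mean of the members in each of the 4 groups, though in control sperm 3 Dnajc17 was higher, at 71.16 FPKM. It had 124.79, 98.19, 46.47 and 122.08 FPKM in control sperm 1 to 4 and 138.85 and 94.69 in the cadmium pools, while control testes showed 180.64 and 240.08 and cadmium testes 224.38 and 267.03. All 4 testes samples lay above all 6 sperm pools, but the difference between control sperm and control testes did not pass the test (log2 difference −1.44 ± 0.67 SE, adjusted p = 0.115). Dnajb8 has a single listed transcript of 989 bases, on chromosome 6 from 88222268 to 88223256. Dnajc7, a J protein that works with both HSP70 and HSP90, was at 6.01 to 26.72 FPKM in sperm and 25.91 to 34.29 in testes, and its control groups overlapped. Hspa1a, the stress-inducible HSP70, was at 42.08, 12.78, 31.68 and 9.25 FPKM in control sperm 1 to 4, 18.24 and 13.45 in cadmium sperm, and 10.39 to 13.09 in testes.

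Of the 13 germ-cell members, 9 could be tested between control sperm and control testes, and 0 were called by edgeR, beside 22.0% of all genes tested. Some were low in every sperm pool and others overlapped between the tissues. All 13 were above 0 in at least 1 testes sample and 11 in at least 1 sperm pool, with Dnajb13 and Dnajc5b at 0 in every pool. Hspa2 had 0, 3.03, 0 and 3.94 FPKM in control sperm 1 to 4 and 3.12 and 3.19 in the cadmium pools, while control testes showed 6.83 and 10.20 and cadmium testes 5.14 and 9.96. Hspa1l, an HSP70 of spermatids encoded beside Hspa1a on chromosome 17, had 0, 1.31, 0 and 2.47 FPKM in control sperm and 3.26 and 6.72 in the cadmium pools, while control testes showed 5.58 and 7.10 and cadmium testes 6.09 and 5.28. For both genes the control sperm pools lay below the control testes, and after cadmium this was so for Hspa2 and not for Hspa1l. Dnajb3, a J protein of spermatids, was at 0 to 4.82 FPKM in sperm and 9.41 to 19.83 in testes. The small heat shock protein gene Hspb9 was at 0 to 5.81 FPKM in sperm and 6.56 to 10.23 in testes. Hspa4l, an HSP110 gene needed for male fertility, reached at most 1.67 FPKM in sperm and was at 1.69 to 5.55 in testes. Dnajb7, a J protein gene of testis, was at 0 to 10.27 FPKM in sperm and 6.56 to 9.98 in testes, so its ranges overlapped. Cct6b, the testis form of a CCT subunit, ranged from 0 to 6.21 FPKM in sperm and 1.73 to 3.03 in testes. Hsf5 and Hsf2bp, a heat shock factor and a partner of heat shock factor 2, did not exceed 1.02 FPKM in any sample.

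Dnajc5g, a testis relative of the cysteine string protein, was the germ-cell member called higher in sperm, after cadmium and not in controls. It had 7.41 FPKM in control sperm 2, 0 in the other 3 control pools and 12.43 and 5.21 in the cadmium pools, against 1.15 and 0.51 in the testes of controls and 1.39 and 0 after cadmium. These values rest on 12 counts in control sperm 2 and 22 and 10 in the cadmium pools.

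**Figure D2:**
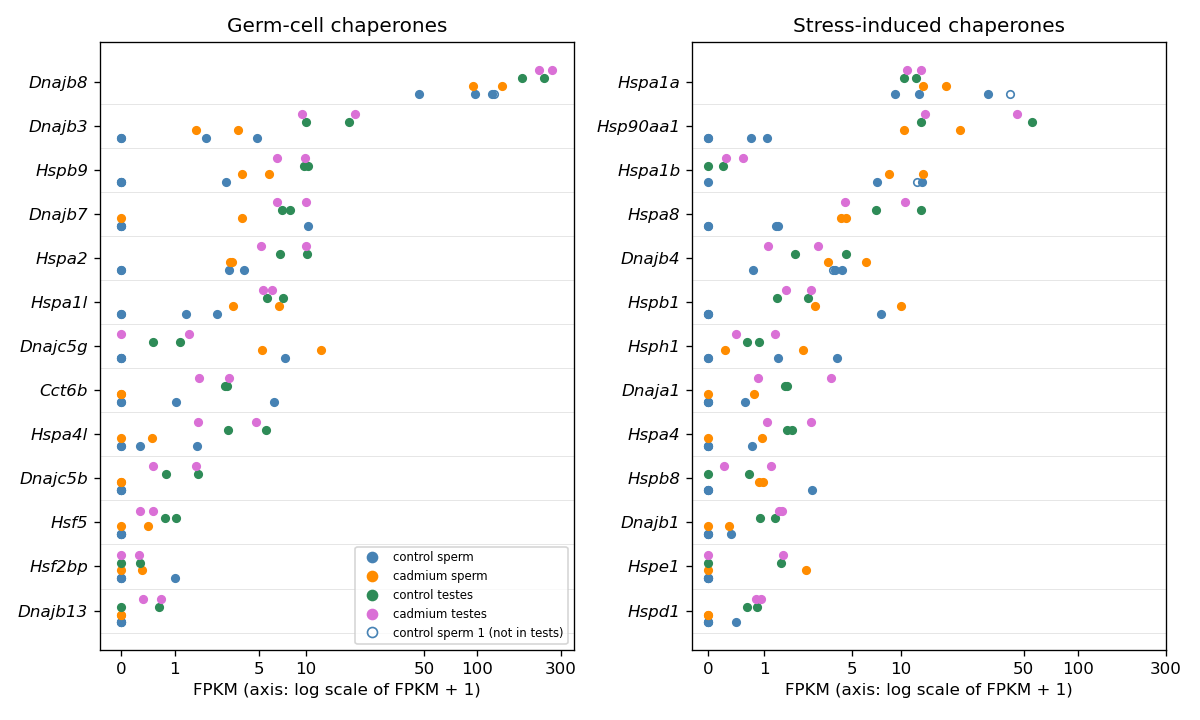
FPKM of the 13 germ-cell members (left) and the 13 stress-induced members (right), on a log axis of FPKM + 1, with each dot a sample and each colour a group. Control sperm 1, left out of the tests, is an open circle. Dnajb8 stands above every other gene, and Hspa1b has its sperm pools, except those at 0, above all testes samples.

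Stress-induced members were present at low levels in both tissues, and Hsp90aa1 and Hspa1a had the highest of them. All 13 were above 0 in at least 1 sperm pool and at least 1 testes sample. Hspa8, the constitutive HSP70 that is also raised by stress, had at most 4.58 FPKM in sperm and 4.48 to 13.17 in testes. Dnajb4 was at 0.74 to 6.12 FPKM in sperm and 1.11 to 4.55 in testes. Dnajb1, the main J protein of the stress response, stayed at or below 0.32 FPKM in sperm and was at 0.9 to 1.49 in testes. The small heat shock protein gene Hspb1 was at 0 in 3 of the 4 control sperm pools and at 7.64 FPKM in the other, at 9.98 and 2.77 in cadmium sperm, and at 1.35 to 2.6 in testes. Hspb8, Hsph1, Hspa4, Dnaja1, Hspd1 and Hspe1 did not exceed 3.99 FPKM in any sample.

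The heat shock element was searched for in RefSeq's promoter windows of GRCm38.p6, which run from 250 bases before to 50 after an annotated start. The pattern searched was GAA, any 2 bases, TTC, any 2 bases and GAA, or its reverse complement, which covers both strands. Where a longer run of these units holds 2 overlapping matches, as at Hspd1 and Hspe1, the whole run was marked. Windows were given for 72 of the members, and 4 of these genes (Hspd1, Hspe1, Hsph1 and Dnajb6) held a match. By gene this was 5.56% of the members with windows against 0.662% of all 27025 genes with windows. By window it was 6.59% of the 91 windows of members against 0.603% of all 32851 windows. Dnajb6 and Hsph1 each count a single site in overlapping windows there. Hsp90aa1 and Hspa8 had no window to search. The 30 bases around each match are given 5′ to 3′ on the gene's strand, with the match in capitals. The likeness of the capitals follows from the fixed pattern searched. The first pair is a single site that lies between the divergent genes of the mitochondrial chaperonin and its lid, so each sequence is the reverse complement of the other. The matches lie 144 to 127 bases before the start of Hspd1 and 89 to 72 before that of Hspe1, and that of Hsph1 lies past its annotated start.
Hspd1, chr1:55088053-55088082, minus strand: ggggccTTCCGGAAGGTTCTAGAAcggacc
Hspe1, chr1:55088053-55088082, plus strand: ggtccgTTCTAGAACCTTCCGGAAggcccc
Dnajb6, chr5:29735844-29735873, plus strand: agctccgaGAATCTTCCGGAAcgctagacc
Hsph1, chr5:149636287-149636316, minus strand: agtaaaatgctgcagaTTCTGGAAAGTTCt

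A match is a description of the letters only. None of these 4 genes was among the members that passed a test in any comparison. Dnajb6, a J protein against aggregation, was at 0 to 8.23 FPKM in sperm and 5.18 to 10.57 in testes. Hspd1 did not exceed 0.92 FPKM and Hspe1 did not exceed 2.37 FPKM in any sample. Hsph1, the stress-induced HSP110, was at 0 to 3.99 FPKM in sperm and 0.41 to 1.29 in testes.

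The design first asks how sperm differs from testes. Between control sperm and control testes, 45 members reached 1 FPKM in at least 2 samples and were tested with edgeR. A gene was called if it changed by more than 2-fold with an adjusted p under 0.05. Of the members, 4 were higher in sperm and 12 lower, which is 35.6% of those tested. Of all 24432 genes tested, 22.0% were called, 4.19% higher and 17.8% lower, and of the known mRNA genes tested, 24.6%. The filter itself shapes this share, since 14 of the 45 passed it through the testes samples alone, and 16 called members are 18.4% of the 87. A further 3 passed through the sperm pools alone, among them Dnajc5 and Hspa1b. The median log2 difference was −2.27 over the tested members and −1.24 over all genes tested, or −1.80 and −0.88 with genes at 0 in a group set at the smallest change that 3 counts allow. In bulk RNA, fewer cells of a type and less RNA per cell cannot be told apart, and testes hold all germ cell stages as well as somatic cells.

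Dnajc5 had the largest rise in sperm. It encodes the cysteine string protein, a J protein of secretory vesicles, on chromosome 2 from 181518858 to 181552886. It had 3.84, 10.96, 7.0 and 5.32 FPKM in control sperm 1 to 4 against 0.13 and 0 in control testes. After cadmium it had 20.26 and 8.32 FPKM in sperm against 0.54 and 0.14 in testes. Every sperm pool lay above every testes sample. The log2 difference was 6.18 ± 1.64 (SE, adjusted p = 0.00683) in controls, where 73 counts in sperm stood against 2 in testes, a ratio of 94.3 with a 95% counting interval of 25.2 to 793. After cadmium it was 5.44 ± 0.70 (adjusted p = 8.69e-13), at 146 against 9 counts.

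Dnajc17, a J protein linked to the spliceosome, rose as well. It had 0, 9.72, 71.16 and 26.37 FPKM in control sperm 1 to 4, 17.79 and 13.14 in cadmium sperm, and 0.36 to 1.46 in testes. Leaving aside control sperm 1, the tissues did not overlap, though the control sperm pools spread widely and rest on 10, 25 and 13 counts. The log2 difference was 4.92 ± 1.59 (SE, adjusted p = 0.0329) in controls and 3.75 ± 0.84 (adjusted p = 9.06e-05) after cadmium. In RefSeq's annotation 3 other genes overlap Dnajc17, among them Zfyve19.

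Hspa12a, an atypical HSP70 on chromosome 19 from 58795750 to 58943672, rose with the most counts behind it. It had 20.61, 25.57, 44.48 and 23.37 FPKM in control sperm 1 to 4 and 36.83 and 23.23 in the cadmium pools, while control testes showed 6.35 and 3.16 and cadmium testes 6.09 and 3.49. Every sperm pool lay above every testes sample. The log2 difference was 2.49 ± 0.78 (SE, adjusted p = 0.028) in controls and 2.91 ± 0.57 (adjusted p = 6.24e-06) after cadmium. In RefSeq's annotation 4 other genes overlap Hspa12a, among them Eno4, and whether strand was used in the counting is not given in the sources used here.

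Hspa1b was the other riser, and its call depends on how reads are shared with Hspa1a. These stress-inducible HSP70 genes are nearly identical neighbours on chromosome 17, and the assignment between them is uncertain. Hspa1b took 22.9, 36.1, 0 and 59.3% of the pair's counts in control sperm 1 to 4, 31.9 and 50.1% in cadmium sperm, and 0 to 4.72% in testes. On its own it was called in controls (log2 difference 5.40 ± 1.86 SE, adjusted p = 0.0462), although control sperm 3 at 0 overlapped with testes, and after cadmium (5.00 ± 0.77, adjusted p = 2.76e-09). With the pair counted as 1 gene, the log2 difference was 0.82 ± 0.88 (SE, adjusted p = 0.527) in controls and 1.38 ± 0.54 (adjusted p = 0.0375) after cadmium, so only the second passed. The summed pair was at 54.5, 20.0, 31.7 and 22.7 FPKM in control sperm 1 to 4, 26.8 and 26.9 in cadmium sperm and 10.6 to 13.3 in testes.

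Dnajc1, a J protein of the endoplasmic reticulum membrane on chromosome 2 from 18205634 to 18394099, fell the most firmly in sperm. It had 11.62, 8.36, 12.95 and 12.40 FPKM in control sperm 1 to 4 and 11.29 and 10.81 in the cadmium pools, while control testes showed 106.44 and 109.43 and cadmium testes 101.09 and 91.41. The replicates of each group lay close together and the tissues were far apart. The log2 difference was −3.54 ± 0.61 (SE, adjusted p = 7.11e-06) in controls and −2.87 ± 0.60 (adjusted p = 2.36e-05) after cadmium. Nearly all of its counts were given to transcript NM_001190817, with 1532.99 counts against 15.04 for NM_007869 in control testes 1. Mllt10 and a pseudogene, Gm13350, overlap Dnajc1 in RefSeq's annotation.

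Dnajc14, another J protein of the endoplasmic reticulum, fell less. It was at 8.82 to 15.14 FPKM in sperm and 30.95 to 46.75 in testes, without overlap. Its log2 difference was −2.12 ± 0.72 (SE, adjusted p = 0.0431) in controls and −1.47 ± 0.55 (adjusted p = 0.0276) after cadmium. Tmem198b and Ormdl2 overlap it in the annotation.

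Hsp90aa1, the inducible cytosolic HSP90 on chromosome 12 from 110691036 to 110696395, was called lower in sperm in controls and not after cadmium. It had 0, 1.07, 0 and 0.70 FPKM in control sperm 1 to 4 and 13.13 and 55.40 in control testes, and the log2 difference was −5.87 ± 1.11 (SE, adjusted p = 6e-05). The cadmium pools, at 22.03 and 10.44 FPKM, overlapped with the cadmium testes at 13.86 and 46.06, where the log2 difference was −0.81 ± 0.54 (adjusted p = 0.249).

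The remaining 9 lower members had no count in control sperm 2 to 4. Among them were Cct8, Cct3 and Cct5 of the CCT ring, the mitochondrial J protein gene Dnaja3, and Dnajc2 and Dnajc21, whose products work at the ribosome. Cct8 was at 3.85 and 7.18 FPKM in control testes and at 2.54 and 6.75 in cadmium testes, and at 0 in all 6 sperm pools. It was at least 9.03-fold lower in control sperm, taking the limit as 3 counts over the 3 pools, and at least 7.24-fold lower in cadmium sperm. For Dnajc2 the bounds were at least 4.39-fold and at least 3.26-fold, and for Dnaja3 at least 3.48-fold and at least 3.02-fold. Cct3 was at least 3.10-fold and at least 2.89-fold lower. The bounds of Cct5, Dnajb12 and Hspb6 in controls, named here after their values were seen, ended below 2-fold, at 1.81, 1.68 and 1.81, so the depth of the sperm pools does not show a 2-fold fall of these 3. Dnajc21 and Dnajb12 were above 0 in cadmium sperm, at 1.99 and 0 and at 0.99 and 1.37 FPKM, and were not called there.

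Between cadmium sperm and cadmium testes, a comparison that shares no sample with the first, 47 members were tested, with 5 higher in sperm and 11 lower. This was 34.0% of those tested beside 31.7% of all 25780 genes tested (16.3% higher and 15.4% lower) and 39.7% of the known mRNA genes tested. The filter shapes this share too, since 12 of the 47 passed it through testes alone and 3 through sperm alone. All 4 members higher in control sperm were higher here too, and 7 of the 12 lower ones were lower again (58.3% of the control calls and 63.6% of the cadmium calls). The 7 were Cct3, Cct5, Cct8, Dnaja3, Dnajc1, Dnajc2 and Dnajc14. Of these, Cct3, Cct5, Cct8, Dnaja3 and Dnajc2 had no count in any sperm pool and passed the filter through testes alone. Of the repeated rises, Dnajc5 and Hspa1b passed it through sperm alone in both comparisons. The share of all called genes that repeated was not computed, so these shares stand without a background. The further riser was Dnajc5g, with a log2 difference of 3.85 ± 0.88 (SE, adjusted p = 0.000134). Hsp90b1, the HSP90 of the endoplasmic reticulum, was at 1.26 and 0.87 FPKM in cadmium sperm and 5.03 and 13.84 in cadmium testes (log2 difference −2.99 ± 0.74 SE, adjusted p = 0.000476). Hspa4l, Dnajb3 and Cct6b were the germ-cell members lower here. Hspa4l had 2 counts in cadmium sperm against 62 in testes, a ratio of 0.0891 with a 95% counting interval of 0.0106 to 0.336.

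**Figure D3:**
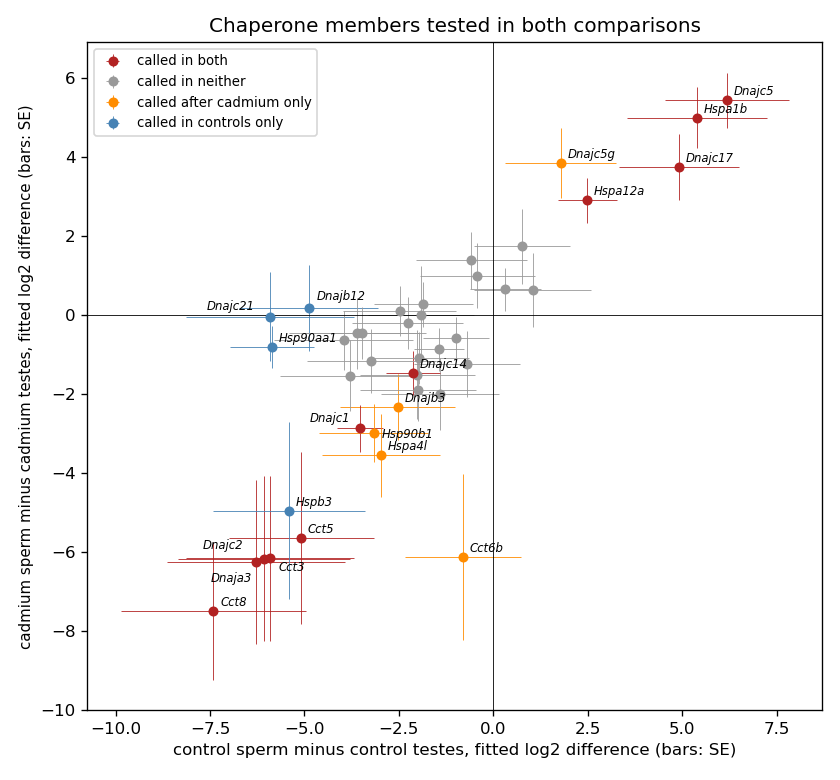
Fitted log2 difference between sperm and testes in controls (horizontal) and after cadmium (vertical) for the 41 members tested in both, with bars of 1 SE. Dnajc5, Hspa1b, Dnajc17 and Hspa12a lie at the upper right and Dnajc1, Cct3, Cct5 and Cct8 at the lower left, where members with no count in sperm have fitted values that are not bounds.

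Of the 13 germ-cell members, 9 were tested in controls with 0 called by edgeR (2 at an unadjusted p under 0.05, which 34.6% of all genes tested reached), and 9 after cadmium with 1 higher in sperm and 3 lower (44.4% of those tested, beside 31.7% of all genes tested). For Hspa2 the log2 difference was −1.98 ± 1.33 (SE, adjusted p = 0.285) in controls and −1.08 ± 0.66 (adjusted p = 0.199) after cadmium. Of the 13 stress-induced members, 9 were tested in controls, with Hspa1b higher and Hsp90aa1 lower, and 10 after cadmium, with only Hspa1b called. This was 22.2% and 10.0% of those tested, beside the same 22.0% and 31.7% of all genes. Hspa8 missed the threshold in controls (log2 difference −3.49 ± 1.53 SE, adjusted p = 0.0881). The number of tissue calls depended on single libraries, among all genes as among the members. In controls the count fell from 16 members to 5 without control sperm 2, to 11 without control sperm 3 and to 3 without control sperm 4. The share of all genes tested that were called fell alongside, from 22.0% to 11.4%, 18.0% and 4.21%. Leaving out a control testes sample, or any sample of the cadmium comparison, left 1 sample in a group. Fewer members passed the filter there, and those counts are not given. Over the alternatives run, the log2 difference of Dnajc1 ranged from −3.80 to −3.18 in controls and from −3.25 to −2.68 after cadmium. That of Hspa12a ranged from 2.42 to 3.12 after cadmium. Dnajc5, Cct8 and Hspa1b passed the filter after cadmium through 1 tissue alone. The fits without a sample of that tissue therefore did not test them.

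Partners of the members that the name rule leaves out were read from the same fits. Of 54 such proteostasis genes, 52 were in the files. In controls 29 were tested, with 1 higher in sperm and 4 lower, and after cadmium 31, with 5 higher and 7 lower. These are 17.2% and 38.7% of those tested, beside 22.0% and 31.7% of all genes tested. Sdf2, a protein of the endoplasmic reticulum lumen that works with HSP70 and J proteins, was the riser in both. It had 250.13, 320.2, 270.69 and 330.69 FPKM in control sperm 1 to 4, 452.8 and 216.71 in cadmium sperm and 9.37 to 19.53 in testes, with no overlap. Its log2 difference was 4.36 ± 0.75 (SE, adjusted p = 7.64e-06) in controls. Ahsa2, a relative of the HSP90 activator Aha1, fell from 154.22 and 184.36 FPKM in control testes to between 14.15 and 26.84 in control sperm 2 to 4 (log2 difference −3.46 ± 0.59 SE, adjusted p = 6.21e-06). Clgn, a lectin chaperone of the germ cell endoplasmic reticulum needed for sperm fertility, had no count in control sperm 2 to 4 and was at least 5.03-fold lower. Tcp1, the CCT subunit whose symbol does not begin with Cct, was at 35.69 to 108.93 FPKM in sperm and 24.27 to 47.91 in testes and was higher after cadmium only (log2 difference 1.32 ± 0.55 SE, adjusted p = 0.0498), while no Cct gene was called higher in sperm in either comparison.

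The second question is whether cadmium changed chaperone mRNA on day 35. In testes, 50 members were tested and edgeR called 0, beside 0.0225% of all 26724 genes tested (6 genes). None had an unadjusted p under 0.05 (0.846% of all genes did), the lowest being 0.234, and DESeq2 and limma also called 0. The fitted log2 differences ran from −1.25 to 0.76, with 23 above 0 and 27 below, and their median was −0.05. Hspa1a was at 10.39 and 12.39 FPKM in control testes against 13.09 and 10.83 after cadmium (log2 difference 0.11 ± 0.48 SE). Hspa8 was at 13.17 and 7.04 against 10.56 and 4.48 (−0.37 ± 0.52), and Dnajb1 at 1.30 and 0.90 against 1.42 and 1.49 (0.50 ± 0.69). Hspa2 gave −0.08 ± 0.56 and Dnajb8 0.28 ± 0.51. Missing the threshold does not show that the levels were alike, since the standard errors of these 5 members lay between 0.48 and 0.69 on the log2 scale.

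In sperm, 33 members were tested and edgeR called 0, beside 0.0824% of all 20640 genes tested (17 genes). At an unadjusted p under 0.05, which 6.56% of all genes tested reached, there were 2, Hsp90aa1 and Cct6b, and DESeq2 and limma called 0. Of the fitted log2 differences 24 were above 0 and 9 below, with a median of 0.66 beside 0.43 over all genes tested.

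Hsp90aa1 had the largest fitted rise. The control pools had 0, 1.07, 0 and 0.70 FPKM (4 counts in control sperm 2 to 4 together), and the cadmium pools had 22.03 and 10.44 FPKM (109 counts), without overlap. The log2 difference was 4.46 ± 1.34 (SE, adjusted p = 0.469), so it did not pass the correction. The adjusted p ranged from 0.00863 to 1 over 16 alternatives. It was called in a fit of all 9 samples together (adjusted p = 0.0108) and without control sperm 3 (0.00863), and in no other. The cadmium pools were also the deeper ones, and their summed leukocyte markers were 1.86 and 13.1 FPKM beside 0 to 4.69 in the control pools. Cd52 held 12.07 of the 13.1 and 4.07 of the 4.69, and Ptprc was at 0.17 and 0 FPKM in the cadmium pools. Summed markers of epididymal epithelium in the cadmium pools, at 15.7 and 10.2 FPKM, overlapped with the 0.49 to 13.7 of the control pools. Of these markers, Crisp1 and Cdh1 were at 0 in all 4 control pools. In the cadmium pools Crisp1 was at 2.5 and 2.31 FPKM and Cdh1 at 0.2 and 0.54. Epcam, Defb42 and Adam28 overlapped between the groups, and the rest were at 0 in every sperm pool. The part of these in the result was not tested.

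No other member was called either. Hspa8 was at 0, 1.37, 1.32 and 0 FPKM in control sperm 1 to 4 and 4.58 and 4.23 in cadmium sperm, without overlap (log2 difference 2.19 ± 2.04 SE, adjusted p = 1). Hspb9 was at 0, 0, 0 and 2.87 FPKM against 3.77 and 5.81 (2.32 ± 1.82), and Hspa1l was at most 2.47 against 3.26 and 6.72 (1.98 ± 1.88). In all, 7 of the 33 tested members had cadmium pools that did not overlap with control sperm 2 to 4, beside 23.5% of all genes tested. The 5 members with the highest mean in control sperm had log2 differences of 0.39 ± 0.63 for Dnajb8, −0.95 ± 1.12 for Dnajc17, 0.05 ± 0.56 for Hspa12a, −0.01 ± 0.83 for Hspa1a and 0.26 ± 0.85 for Dnajc7 (SE), and none was called. Cct6b went from 0, 1.03, 6.21 and 0 FPKM to 0 in both cadmium pools (adjusted p = 0.547), and its control pools overlapped with these.

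**Figure D4:**
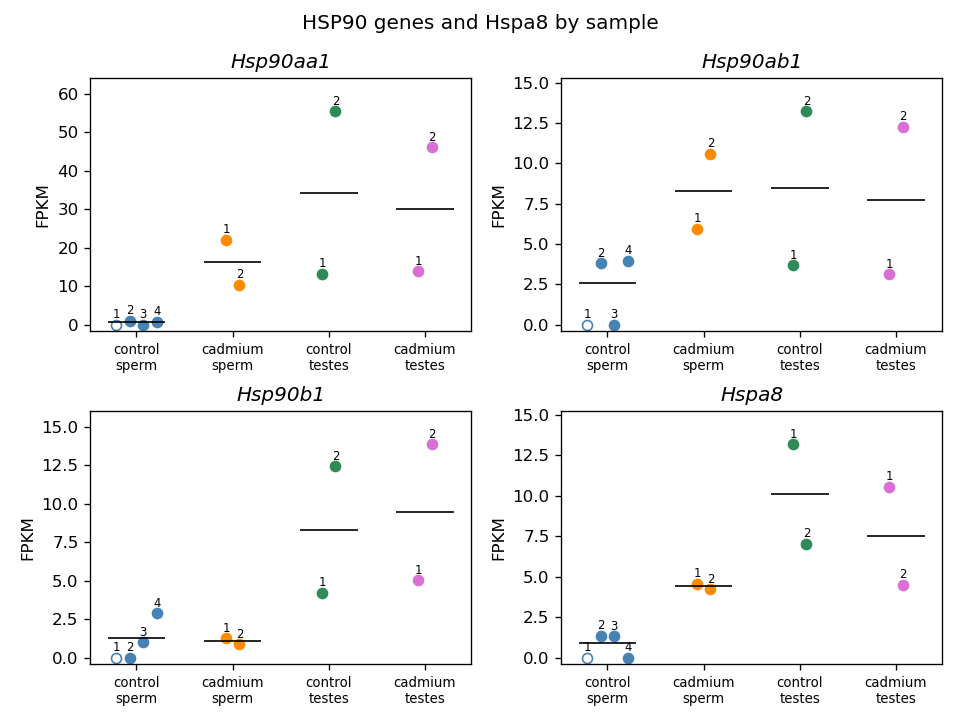
FPKM of the 3 HSP90 genes and Hspa8 (linear axes that differ between panels) in every sample, with replicate numbers beside the dots and the group mean as a line. Control sperm 1 is open and outside the mean. The cadmium sperm pools lie above all control pools for Hsp90aa1 and Hspa8, and the testes replicates of each HSP90 gene lie far apart.

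Whether cadmium acted differently in sperm and in testes was tested as an interaction. Of 58 members, edgeR called 0, beside 0.0396% of all 32814 genes tested, with 2 at an unadjusted p under 0.05 beside 3.77% of all genes, and 0 by DESeq2 or limma. Hsp90aa1 again had the lowest p, with a log2 difference of 4.56 ± 1.29 between the effects (SE, adjusted p = 0.328). In testes its cadmium effect was −0.15 ± 0.71 on values that spread from 13.13 to 55.40 FPKM between the 2 controls. For Hspa1a the difference between the effects was −0.20 ± 1.17, and for Hspa2 it was 0.36 ± 1.45.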

How the data were processed

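Strand-specific libraries were made after removal of ribosomal RNA with RNase H and read from both ends. The authors filtered the reads, aligned them (SOAPaligner/SOAP2 in the study's methods, HISAT and mm10 in the submitters' processing notes) and deposited, for each transcript above 0, an expected count, which is an estimate that is not normalized, and an FPKM, scaled by the authors to length and library size. The tool that gave the counts is not given in the sources used here. Transcripts missing from a sample's table were set to 0 there.

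Expected counts and FPKM were summed by gene within a transcript class. Sums were rounded and compared by edgeR 4.0.16 (R 4.3.3, quasi-likelihood, TMM scaling). Genes of every class entered if 2 or more samples of the comparison reached 1 FPKM. Calls needed more than a 2-fold change and a Benjamini-Hochberg adjusted p, over all genes tested, below 0.05. The SE is the log2 change divided by the square root of F. DESeq2 1.42.0, limma 3.58.1 on log2(FPKM + 1) or log2(FPKM + 0.1), other filters and sample sets were alternatives. The test was tested on simulated data. Floors of 3 counts and 95% exact intervals cover counting error only. The labels do not say which replicates came from separate animals. The study's methods describe sperm pools from separate groups of mice, whose testes gave the testes samples, and do not mention cadmium. The tests took no account of animals shared between tissues, so p-values measure the spread between these samples. The members and gene lists were chosen with earlier results of these data known. The genes named are the germ-cell and stress-induced lists, the 5 highest members of control sperm and of control testes, and up to 6 rises and 6 falls per comparison among called members without overlap. Depths ran from 366455 to 2866856 counts, where 3 counts are 0.000819% and 0.000105%. Calculations used Python 3.11.15, pandas 2.3.3 and scipy 1.17.1, and figures matplotlib 3.10.9.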

Additional observations from a re-analysis of the deposited data

Results flagged for a closer look

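Among 13 named members with at least 10 counts over the 4 control sperm pools, 2 had a pool far from the others by Dixon's test at 95%, and chance alone flags about 1 group in 20. Dnajb4 was at 0.74 FPKM in control sperm 2 and at 3.72, 4.32 and 3.87 in the other pools, so the gap was 0.832 of the range. These values rest on 2 counts in control sperm 2 and on 4, 4 and 5 in the others, close to the floor of 3 counts. Dnajc5g was at 7.41 FPKM (12 counts) in control sperm 2 and at 0 in the other pools, so the gap was 1.0 of the range. Control sperm 2 was the deepest control pool, at 1058017 counts. No member of 18 compared moved one way with cadmium in every sperm pool and the other way in every testes sample.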

How the results depend on the processing

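No called member changed direction under any alternative. For 9 of the falls in controls and 6 of those after cadmium, which had no count in the sperm compared, the direction had no room to change. The count of called members between control sperm and control testes (16) was 9 with DESeq2 and 3 with no filter. The share of all genes tested that were called also fell, from 22.0% to 13.6% and 2.26%. The count was 3 to 11 when control sperm 2, 3 or 4 was left out, beside 4.21 to 18.0% of all genes tested. Fitted to known mRNA genes alone it was 14, with 2 higher and 12 lower in place of 4 and 12, a scaling that shifted the median gene by −0.13. Between cadmium sperm and cadmium testes (16) the count was 9 with DESeq2, where the share of all genes tested fell from 31.7% to 19.7%. Leaving out a replicate there leaves 1 sample in a group, so those counts are not given. The count for cadmium in testes was 0 throughout. For cadmium in sperm it was 0, and 1 (Hsp90aa1) in a fit of all 9 samples, with 0 to 1 when each replicate was left out. With Hspa1a and Hspa1b counted as 1 gene, an alternative chosen after seeing the data, the tissue counts were 15 and 16. The summed chaperone FPKM of control sperm was −1.15 on the log2 scale relative to control testes, and −0.93 as a share of the FPKM of known mRNAs. Scaling by RLE size factors shifted the median gene of cadmium in sperm by −0.15, and fitting known mRNA genes alone shifted that of the interaction by 0.51, without changing a count.

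The replicate numbers are not said to pair samples. Across 33086 genes, the difference between replicates 2 and 1 correlated at 0.47 between control and cadmium testes, at −0.05 between the sperm groups, at −0.03 between control sperm and control testes and at 0.08 between the cadmium groups. With the number as a block, and all 4 control sperm pools in every fit with control sperm, the count was 5 in the control tissue comparison, 13 in the cadmium one, 0 for cadmium in testes and in sperm, and 1 (Hsp90aa1, adjusted p = 0.0262) for the interaction. Leaving out a replicate changed no count of the interaction, which stayed at 0.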

Other observations

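In testes, the samples numbered 2 of both groups differed from those numbered 1 across many chaperones. Of the 36 members with at least 40 counts over the 4 testes samples, 19 were higher in both samples numbered 2 than in both numbered 1, and 6 were lower in both. Over 3747 known mRNA genes with as many counts, these shares were 28.8% and 33.1%, against 52.8% and 16.7% of the members. The 19 held all 3 HSP90 genes, Cct3, Cct4, Cct6b and Cct8, and the class A J protein genes Dnaja1, Dnaja3 and Dnaja4. The 6 held Hspa8, Hspa12a and Hspa12b. Hsp90aa1 was at 55.40 and 46.06 FPKM in the samples numbered 2 and at 13.13 and 13.86 in those numbered 1, while Hspa8 was at 7.04 and 4.48 against 13.17 and 10.56. These counts were made after the values were seen, and the labels do not say what the numbers share.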
